A study of Arabidopsis thaliana with 6 samples.

Results

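The cytosolic 60S ribosomal protein genes described here are 59 Arabidopsis thaliana genes of 21 protein families, L3 to L21 with their paralogs, among 32833 genes in the deposited table. They were taken by gene identifier, with no threshold on any value, and compared between roots of the xal1-2 mutant and of WT Col-0. Of the 59 genes, 58 had reads in at least 1 library and were tested. RPL13C (AT3G48960) had no read in any library, and RPL8B (AT3G51190) had 1 read in each of 2 libraries. RPL18aA (AT1G29965) was low, and the other 56 members lay at or above the median level of all genes tested.

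The series holds 3 libraries of xal1-2, a mutant in the Col-0 background that the labels describe as a loss of function of XAL1, and 3 libraries of WT Col-0. XAL1 (XAANTAL1, AGL12) encodes a MADS-box transcription factor of the root. Per the labels, both genotypes were 8-day-old seedlings on vertical plates (0.2X MS, 1% sucrose) kept at 22 °C under days of 16 h light and 8 h dark. About 60 plants were pooled into each replicate after cotyledons and hypocotyls had been removed. The series was made to find genes that differ between xal1-2 and WT roots, the mutant root being short. A single mutant allele was sampled, and whole roots mix dividing and differentiated cells. In such bulk samples fewer cells of a type and less RNA per cell cannot be told apart.

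The 60S subunit of the cytosolic ribosome joins amino acids at its peptidyl transferase centre and releases the chain through an exit tunnel. Its proteins are made in the cytosol, imported into the nucleolus and assembled with ribosomal RNA, so that all are needed in like amounts. In Arabidopsis each protein is encoded by several genes, and growing tissue such as the root meristem uses them most. Promoters of plant ribosomal protein genes are known for the telo box and for site II elements, short motifs found close to the start of the gene and tied to expression in dividing cells.

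The starts of the members were read from the RefSeq sequence of the TAIR10.1 build. The 250 bases before the annotated start are shown for the 4 genes that passed the test, for the member with the lowest fold change (RPL3B) and for the member with the highest level per kb (RPL14B), so that called and uncalled genes can be compared. Each is printed 5′ to 3′ on the strand of its gene. Capitals mark the telo box (AAACCCTA, or TAGGGTTT on the other strand) and site II (TGGGCC or TGGGCT, or GGCCCA or AGCCCA on the other strand). The 6 windows are chr2:18251157-18251406 (minus strand) for RPL7C, chr3:4432797-4433046 (plus) for RPL7D, chr2:17791442-17791691 (plus) for RPL11A, chr2:8813582-8813831 (plus) for RPL14A, chr1:22723153-22723402 (minus) for RPL3B and chr4:13595253-13595502 (minus) for RPL14B.
RPL7C: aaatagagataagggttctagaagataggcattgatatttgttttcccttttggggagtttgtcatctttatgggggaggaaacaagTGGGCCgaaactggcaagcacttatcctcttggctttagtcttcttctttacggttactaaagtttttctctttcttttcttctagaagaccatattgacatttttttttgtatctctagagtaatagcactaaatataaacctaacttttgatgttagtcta
RPL7D: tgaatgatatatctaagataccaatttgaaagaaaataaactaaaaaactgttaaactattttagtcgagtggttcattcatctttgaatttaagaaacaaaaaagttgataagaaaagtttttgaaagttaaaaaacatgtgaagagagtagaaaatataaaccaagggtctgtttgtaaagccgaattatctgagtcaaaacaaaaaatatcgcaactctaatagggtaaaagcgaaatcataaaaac
RPL11A: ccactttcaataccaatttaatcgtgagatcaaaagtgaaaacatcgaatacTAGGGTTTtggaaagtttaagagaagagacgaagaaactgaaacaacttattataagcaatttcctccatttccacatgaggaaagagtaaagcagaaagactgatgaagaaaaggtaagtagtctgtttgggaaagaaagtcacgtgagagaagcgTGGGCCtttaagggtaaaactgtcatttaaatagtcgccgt
RPL14A: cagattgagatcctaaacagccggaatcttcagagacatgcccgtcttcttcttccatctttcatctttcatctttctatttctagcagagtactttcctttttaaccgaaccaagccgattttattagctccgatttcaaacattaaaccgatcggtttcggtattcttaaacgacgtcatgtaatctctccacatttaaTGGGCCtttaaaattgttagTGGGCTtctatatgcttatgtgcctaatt
RPL3B: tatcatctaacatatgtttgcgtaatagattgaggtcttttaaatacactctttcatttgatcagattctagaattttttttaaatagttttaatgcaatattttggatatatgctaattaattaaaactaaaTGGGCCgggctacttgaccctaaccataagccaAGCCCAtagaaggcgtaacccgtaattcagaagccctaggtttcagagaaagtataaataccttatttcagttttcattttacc
RPL14B: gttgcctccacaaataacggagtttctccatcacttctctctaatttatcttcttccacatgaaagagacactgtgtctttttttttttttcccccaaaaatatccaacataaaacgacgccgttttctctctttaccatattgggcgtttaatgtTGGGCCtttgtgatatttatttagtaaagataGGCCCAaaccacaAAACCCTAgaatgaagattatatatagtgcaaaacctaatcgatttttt
The window of RPL7D, the member with the smallest adjusted p, holds neither motif. RPL7C holds 1 site II. RPL11A and RPL14B hold both motifs here, and RPL14A and RPL3B hold site II alone. RPL14A has a telo box as well, 13 bp after its start and so outside the printed stretch.

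In windows of 250 bases before to 50 bases after the start, searched on both strands with overlapping matches counted, 32 of the 59 members (54.2%) held a telo box, against 6.22% of all 27443 protein-coding genes. Site II was present in 51 members (86.4%), against 21.7% of all protein-coding genes. Both motifs were present in 28 members (47.5%), against 2.20%, and 4 members held neither. The 36 telo boxes centred near the start, with a median position of -4.5 bp, and 17 of them lay after it. The 122 site II matches lay mostly upstream, 78 of them within 100 bp of the start, with a median position of -43.5 bp. The median log2 fold change was 0.21 over the 32 members with a telo box and 0.27 over the 26 tested members without one. With site II it was 0.23 (51 members), and without it 0.31 (7 members). In the same windows a telo box was present in 46.8% of 77 other 60S genes and 48.0% of 100 genes of the 40S subunit. Of 27 ribosome assembly factors 55.6% held one. Site II was present in 77.9%, 69.0% and 70.4% of these lists, in that order. A match describes these letters in this window and is not evidence of binding.

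**Figure D1:**
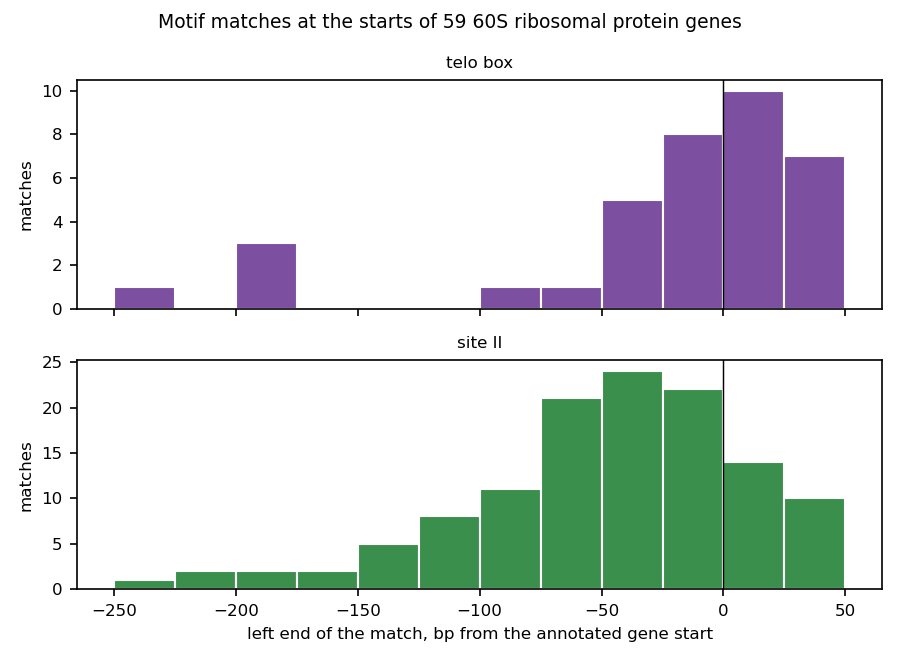
Positions of motif matches at the starts of the 59 members, as the number of matches in 25-bp bins (y) against the distance of the left end of the match from the annotated start in bp (x). Of the 36 telo boxes (top) 17 lie after the start, while 78 of the 122 site II matches (bottom) lie within the 100 bp before it.

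The libraries held 6978879 to 9247089 reads in genes for xal1-2 and 7740207 to 8962691 for WT, and 21969 to 22409 genes had reads in a library. XAL1 itself had scaled counts of 76.5, 102 and 103 in xal1-2, against 264, 250 and 269 in WT (log2 fold change -1.48, SE 0.14, adjusted p = 0.00034, limma-trend). Values are scaled counts, that is, reads divided by a size factor of the library. Tests are on log2(scaled count + 1) with limma-trend, adjusted by the Benjamini-Hochberg method over all 24441 genes tested, and fold changes are xal1-2 over WT on that scale. A gene is called at an adjusted p under 0.05. On this test 405 genes of the table were higher and 556 lower in xal1-2. With libraries scaled to their total reads these counts were 569 higher and 401 lower, and 56 members stayed above 0.

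The 60S genes lay slightly higher in xal1-2 roots almost without exception, and few passed the test one by one. Of the 58 members tested, 56 had a log2 fold change above 0, against 49.5% of all genes tested, and 4 were called higher, against 1.66% of all genes. No member was called lower, against 2.27% of all genes. The 56 include RPL8B, which had at most 1 read in a library (log2 fold change 0.01, SE 0.49). The median log2 fold change of the members was 0.23, a 1.17-fold difference, with quartiles of 0.18 and 0.31, and the median of all genes was near 0. The largest member reached 1.40-fold, and none passed the 1.5-fold threshold named in the study's design. In 35 members every xal1-2 library exceeded every WT library, against 12.1% of all genes, and in 23 the genotypes overlapped. In 0 members was every xal1-2 library below every WT library, against 11.7% of all genes. At an unadjusted p under 0.05 (limma-trend), 27 members were higher, against 9.02% of all genes, and 0 were lower.

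**Figure D2:**
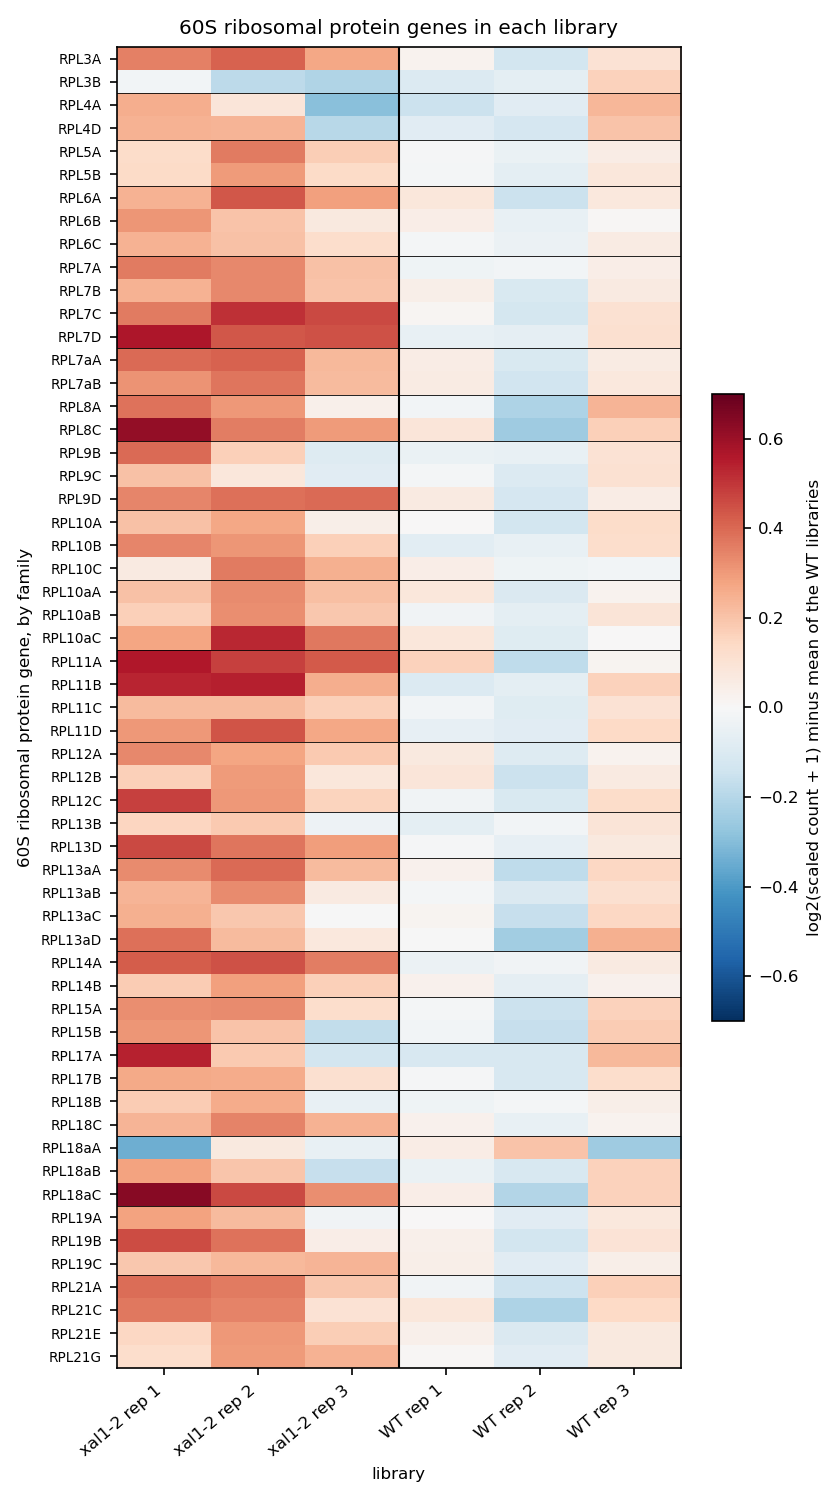
Level of each of the 57 members with a mean scaled count of at least 10 (rows, by family) in each library (columns, xal1-2 left and WT right), as log2(scaled count + 1) minus the mean of the WT libraries of the gene. Red is above that mean and blue below it. Most rows are red in all 3 xal1-2 libraries, with replicate 3 paler than the others, and within WT replicate 2 is the lowest and replicate 3 the highest for most genes.

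Tools differed in which single members passed. On the recovered reads edgeR's quasi-likelihood test called 6 members higher (2.49% of all genes tested with it), among them the 4 of limma-trend, and DESeq2 called 7 (1.97%), among them 3 of the 4. Beyond the limma-trend calls, edgeR called RPL9D and RPL13D, and DESeq2 called RPL3A, RPL10aC, RPL13D and RPL18aC. The authors' deposited table also has 7 members at an adjusted p under 0.05, the same as in DESeq2 and all of them higher (1.96% of all genes). With limma-trend 0 members were called when any library other than WT replicate 3 was left out, and 5 without WT replicate 3. Calls over the whole table fell too: 38, 125 and 183 genes were called higher without xal1-2 replicate 1, 2 or 3, and 165, 85 and 372 without WT replicate 1, 2 or 3, against 405 with all 6 libraries. The median log2 fold change of the members stayed between 0.19 and 0.29 with any 1 library left out.

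Summed over the members, the scaled count was 142433, 145506 and 127784 in xal1-2, against 117905, 109246 and 126287 in WT. The means were 138574 ± 9470 in xal1-2 and 117813 ± 8521 in WT (SD, n = 3 each), a ratio of 1.18. The lowest xal1-2 library, replicate 3, lay just above the highest WT library, replicate 3. As a share of all reads in genes, the members took 1.79%, 1.77% and 1.58% in xal1-2, against 1.37%, 1.28% and 1.54% in WT. The members moved together between libraries of 1 genotype: xal1-2 replicate 3 was the lowest mutant library for 42 of 57 members, WT replicate 2 the lowest WT library for 47, and WT replicate 3 the highest for 46. In 22 members xal1-2 replicate 3 lay below the highest WT library, whereas replicate 1 did so in 2 and replicate 2 in 6. The number of members with non-overlapping genotypes was 51 without xal1-2 replicate 3 (17.6% of all genes) and 43 without WT replicate 3 (18.5%), and 35, 35, 36 and 35 without xal1-2 replicate 1 or 2 or WT replicate 1 or 2 (16.7%, 16.5%, 15.9% and 14.9% of all genes).

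Among 3 lists of cell type markers, that of differentiated root cells moved between the genotypes as well. Of its 12 markers (endodermis, xylem, root hair and phloem), 12 had a log2 fold change below 0, with a median of -0.48. Of these 6 were called lower, against 2.27% of all genes. The summed scaled counts of the 12 were 5596 to 6502 in xal1-2 and 7369 to 8820 in WT. Of 11 markers of dividing meristem cells, 4 were above 0, 7 below and 0 called, with sums of 1777 to 1931 in xal1-2 and 1713 to 2024 in WT. The 4 markers of green shoot tissue had sums of 887 to 1732 in xal1-2 and 993 to 1540 in WT, with 0 called. No marker of the 3 lists was at 0 in every library, and their part in the higher values of the 60S genes was not tested.

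Most members have high counts, so the same measures were taken over other genes with high counts. All 42 members with a mean scaled count of at least 1000 had a log2 fold change above 0, with a median of 0.22, and 26 did not overlap between genotypes. Among the 1501 other genes at that level, 35.6% were above 0, 8.33% were higher without overlap, and the median log2 fold change was -0.07. The 4 members called by limma-trend all lay in the lower part of the members' own range of counts, RPL7C just inside it. The members were split at a mean scaled count of 1889. The 28 above it had a median log2 fold change of 0.22 with 0 called by limma-trend, and the 28 below it one of 0.30 with 4 called. DESeq2 did call RPL3A, the member with the highest mean scaled count, 7456 (adjusted p = 0.0454, DESeq2). RPL18aA and the near-silent members stand outside that split. Across 57 members, genes being no independent replicates, Spearman's rho between level and log2 fold change was -0.19.

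**Figure D3:**
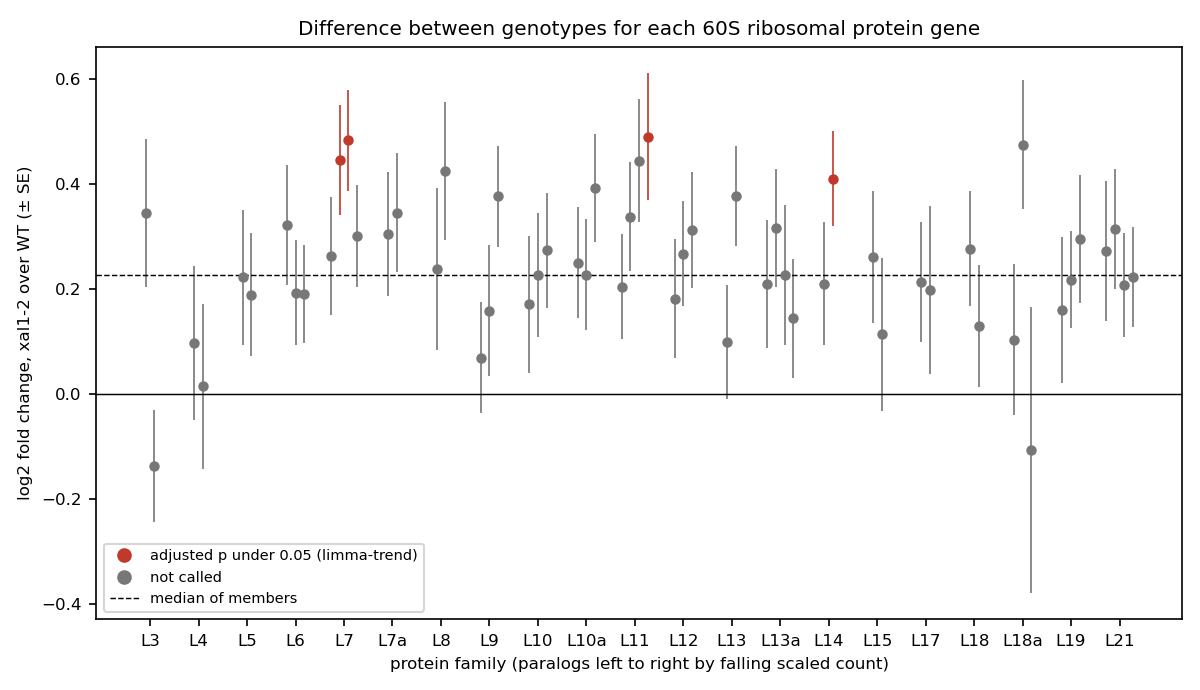
Log2 fold change, xal1-2 over WT, with its SE (y) for the 57 members with a mean scaled count of at least 10, by protein family (x) and, within a family, from the highest to the lowest scaled count. Red points passed the test (adjusted p under 0.05, limma-trend) and grey ones did not. The dashed line is the median of the tested members, 0.23, and RPL3B and RPL18aA alone lie below 0.

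RPL7C and RPL7D encode L7, a ribosomal RNA-binding protein of the subunit. RPL7D (AT3G13580, chr3:4433047-4435305) had scaled counts of 818, 750 and 754 in xal1-2, against 534, 530 and 599 in WT. Every mutant library was above every WT library, and the gene rose (log2 fold change 0.48, SE 0.10, adjusted p = 0.0223, limma-trend). RPL7C (AT2G44120, chr2:18248830-18251156) had 2053, 2270 and 2192 in xal1-2, against 1609, 1462 and 1718 in WT. It rose as well (log2 fold change 0.45, SE 0.10, adjusted p = 0.041, limma-trend). The leading paralog RPL7B, with means of 3763 ± 183 in xal1-2 and 3140 ± 195 in WT (SD, n = 3 each), and the minor RPL7A, with 423 ± 24.0 in xal1-2 and 343 ± 10.3 in WT, were higher without overlap but not called (adjusted p = 0.227 and 0.113, limma-trend). The L7 family had the largest ratio of summed levels of all 21 families, 1.27.

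RPL14A (AT2G20450, chr2:8813832-8815379) had scaled counts of 798, 808 and 761 in xal1-2, against 578, 584 and 620 in WT. Both genotypes were tight, and the gene rose (log2 fold change 0.41, SE 0.09, adjusted p = 0.0328, limma-trend). Its paralog RPL14B, which had the highest level per kb of exon of any member (6719 scaled counts per kb in xal1-2 and 5807 in WT), had 4785, 5173 and 4756 in xal1-2, against 4330, 4056 and 4331 in WT. Its genotypes did not overlap either, but the difference did not pass the test (log2 fold change 0.21, SE 0.12, adjusted p = 0.36, limma-trend). L14 is a protein of the solvent side of the subunit.

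L5 and L11 bind 5S ribosomal RNA and enter the subunit with it as a particle. RPL11A (AT2G42740, chr2:17791692-17793142) had scaled counts of 275, 260 and 251 in xal1-2, against 208, 164 and 188 in WT. Its log2 fold change was the largest of the members, 0.49 (SE 0.12), and lay at the edge of the threshold (adjusted p = 0.049, limma-trend). RPL11A is the called member that DESeq2 did not call (adjusted p = 0.0647), and with pseudocounts of 0.1 and 5 in limma-trend its adjusted p was 0.0546 and 0.0531. With 1 library left out the limma-trend adjusted p of RPL11A ran from 0.0577 to 0.195. RPL11B had 539, 542 and 443 in xal1-2, against 347, 355 and 416 in WT, and missed the threshold (log2 fold change 0.44, SE 0.12, adjusted p = 0.0583, limma-trend). RPL11A and RPL11B share 91.1% of their coding bases and a run of 113 identical bases, and how shared reads were divided between them was not tested. RPL11D, with means of 1698 ± 107 in xal1-2 and 1345 ± 114 in WT, and RPL11C, with 2026 ± 41.5 in xal1-2 and 1762 ± 118 in WT (SD, n = 3 each), did not overlap between genotypes and were not called. RPL5A and RPL5B, known from mutants with altered leaf shape and polarity, had log2 fold changes of 0.22 and 0.19 and were not called. All 6 genes of L5 and L11 were higher without overlap, against 35 of the 58 tested members and 12.1% of all genes.

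L3, L4, L8, L10 and L17 surround the peptidyl transferase centre and the exit tunnel. Of their 12 tested genes 11 had a log2 fold change above 0, with a median of 0.21. Higher without overlap were 4, against 12.1% of all genes. Called higher by limma-trend were 0, against 1.66% of all genes. Among the 11 is RPL8B, with at most 1 read in a library (log2 fold change 0.01, SE 0.49). RPL8A, one of the 3 members with the highest level per kb, had scaled counts of 6301, 5972 and 4962 in xal1-2, against 4778, 4173 and 5713 in WT. Replicate 3 of xal1-2 lay within the WT range, and the gene did not pass the test (log2 fold change 0.24, SE 0.15, and from 0.13 without WT replicate 2 to 0.36 without WT replicate 3). The L4 genes showed the smallest family ratio, 1.04, and RPL4A had 3652, 3244 and 2496 in xal1-2, against 2754, 2895 and 3601 in WT. Its genotypes overlapped, with a log2 fold change of 0.01 (SE 0.16) that was negative without xal1-2 replicate 1 or 2 or WT replicate 1 or 2. RPL10A, also known in antiviral signalling, had a log2 fold change of 0.17. The other L10 genes, RPL10B and RPL10C, had 0.27 and 0.23 without overlap, and RPL8C had 0.42 without overlap (adjusted p = 0.0992, limma-trend). The exit tunnel genes RPL17A and RPL17B had 0.20 and 0.21 and overlapped, as did RPL4D (0.10).

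L10a and L12 belong to the mobile stalks where transfer RNAs leave and elongation factors bind. All 6 of their genes had log2 fold changes above 0, from 0.18 (RPL12B) to 0.39 (RPL10aC). Of these 5 were higher without overlap, against 35 of the 58 tested members and 12.1% of all genes. RPL10aC had 1226, 1461 and 1309 in xal1-2, against 1068, 955 and 1015 in WT, and missed the threshold in limma-trend (adjusted p = 0.0568). DESeq2 called RPL10aC (adjusted p = 0.0328). RPL10aB, known as PIGGYBACK1 from its effect on leaf patterning, had a log2 fold change of 0.23, RPL10aA one of 0.25, RPL12A one of 0.27 and RPL12C one of 0.31.

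The remaining 12 families line the surface and core of the subunit, and 33 of their 34 tested genes had a log2 fold change above 0. Among them RPL13D (0.38, adjusted p = 0.0525), RPL9D (0.38, adjusted p = 0.0546) and RPL18aC (0.47, adjusted p = 0.0552) came close to the threshold of the limma-trend test. DESeq2 called RPL13D (adjusted p = 0.0314) and RPL18aC (adjusted p = 0.0173), but not RPL9D (adjusted p = 0.0839). edgeR called RPL13D (adjusted p = 0.0483) and RPL9D (adjusted p = 0.04995), but not RPL18aC (adjusted p = 0.0535). RPL18aC had scaled counts of 1908, 1691 and 1538 in xal1-2, against 1267, 1064 and 1372 in WT, with no overlap. Both L7a genes were higher without overlap, RPL7aA with a log2 fold change of 0.34 and RPL7aB with 0.30, and so were RPL6A (0.32), RPL6B (0.19) and RPL6C (0.19). The 4 L21 genes had values from 0.21 (RPL21E) to 0.31 (RPL21A), with overlap in RPL21C alone. The 4 L13a genes ran from 0.14 (RPL13aC) to 0.32 (RPL13aA), with no overlap in RPL13aA alone. RPL9B and RPL9C, which have 99.1% of their coding bases in common, had 0.16 and 0.07 and overlapped. RPL9C is also known as PIGGYBACK2. RPL15A (0.26) and RPL15B (0.11) overlapped, while in L18 RPL18C (0.28) did not and RPL18B (0.13) did. RPL19A, of a family that bridges to the small subunit, was second in level per kb (5836 scaled counts per kb in xal1-2 and 5211 in WT). RPL19A had 7023, 6720 and 5673 in xal1-2, against 5790, 5463 and 6082 in WT, and its genotypes overlapped (log2 fold change 0.16, SE 0.14). RPL19B had 0.29 with overlap and RPL19C 0.22 without it. Between the highest and the lowest of the 57 members the level per kb ranged over 228-fold. The lowest was RPL18aA, at 27.5 scaled counts per kb over all libraries (15 to 26 reads), and the next lowest was RPL13aC, at 220. The length used is that of all annotated exons of a gene joined, 2212 bp for RPL13aC, whose coding sequence is 621 bp. By mean scaled count RPL13aC (487) lay above RPL10B (274) and RPL11A (224).

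All 21 families had a higher summed level in xal1-2, with ratios from 1.04 (L4) to 1.27 (L7), and in 12 families the sums did not overlap between genotypes. Sums over groups of other genes were not taken, so no background share stands beside the 12. Among counted reads, the family sums do not depend on how these were divided between near-identical paralogs. Of the 59 pairs within families, 4 share a coding run of at least 100 identical bases: RPL9B with RPL9C, RPL21E with RPL21G, RPL21A with RPL21C, and RPL11A with RPL11B. Single values of these genes are uncertain. In addition, 14 members overlap a gene on the opposite strand and 5 a gene on the same strand in the annotation, RPL18aA among the 5.

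RPL3B was the 1 well-expressed member with a negative value. It had 586, 523 and 512 in xal1-2, against 556, 566 and 663 in WT, so that the genotypes overlapped (log2 fold change -0.14, SE 0.11, adjusted p = 0.523, limma-trend). The log2 fold change was -0.06 without WT replicate 3 and -0.08 with library totals. Its paralog RPL3A, which gave 92.9% of the L3 reads, had 8366, 8723 and 7920 in xal1-2, against 6678, 6000 and 7051 in WT, without overlap (log2 fold change 0.34, SE 0.14, adjusted p = 0.206, limma-trend). RPL18aA, at 17.1, 23.1 and 21.2 in xal1-2 and 22.8, 25.3 and 18.3 in WT, also had a negative value (-0.11, SE 0.27), which was 0.0097 without xal1-2 replicate 1.

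To compare paralogs within a library, the log2 ratio of the scaled counts of the 2 genes with the most reads in each family was taken, the higher on top. It was computed on log2(scaled count + 1), so that the size factor of a library enters through the added 1 alone. The ratio differed most in L3. The log2 ratio of RPL3A to RPL3B was 3.95 ± 0.11 in xal1-2 and 3.46 ± 0.10 in WT (SD, n = 3 each), a difference of 0.48. That of RPL18aB to RPL18aC was 1.19 ± 0.11 in xal1-2 and 1.56 ± 0.09 in WT, a difference of -0.37. RPL18aB, the leading gene, had scaled counts of 4391, 4132 and 3231 in xal1-2, against 3502, 3343 and 4039 in WT, and overlapped. That of RPL13B to RPL13D was 0.78 ± 0.07 in xal1-2 and 1.06 ± 0.05 in WT, a difference of -0.28. RPL13B had 2500, 2557 and 2202 in xal1-2, against 2153, 2223 and 2397 in WT, and RPL13D had 1491, 1403 and 1325 in xal1-2, against 1074, 1039 and 1133 in WT.

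The ratio did not overlap between genotypes in 9 of the 21 pairs, and in 6 of these it was lower in xal1-2, the second gene being the one with the larger fold change. Over all pairs 13 differences were below 0 and 8 above. The same count was not taken over pairs of other genes, so no background share stands beside the 9. With 3 libraries against 3 the exact two-sided permutation test cannot give less than 0.1, which these 9 pairs reached, and adjusted over the 21 pairs the smallest value was 0.233. A threshold of 0.05 is thus out of reach of this test, whatever the pairs do.

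**Figure D4:**
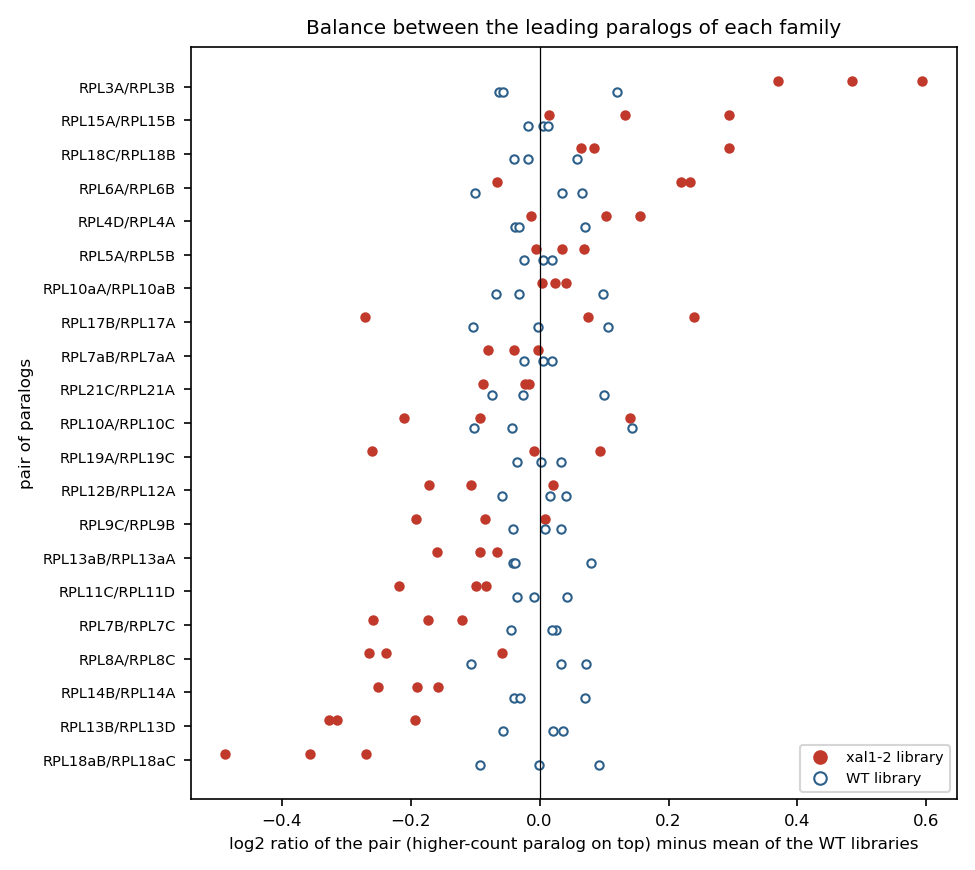
Log2 ratio of the 2 paralogs with the highest scaled counts in each of 21 families in every library, minus the mean of the WT libraries (x), by pair (y, ordered by difference). Filled red points are xal1-2 libraries and open blue points WT libraries. RPL3A/RPL3B at the top has all xal1-2 libraries above WT, and RPL18aB/RPL18aC and RPL13B/RPL13D at the bottom have them below.

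Genes of other parts of the ribosome and of its assembly also lay mostly above 0, some with larger fold changes. Of all genes tested, 49.5% were above 0 and 1.66% were called higher. Of the 74 other 60S genes tested, 73 had a log2 fold change above 0, with a median of 0.22, and 2 were called higher. Of the 97 genes of the 40S subunit tested, 95 were above 0, with a median of 0.25, and 9 were called higher. The genes named next from these lists were chosen after their values were seen. RPS15A (AT1G07770) had 2762, 2656 and 2544 in xal1-2, against 2048, 1846 and 2067 in WT (log2 fold change 0.42, adjusted p = 0.049, limma-trend). Of 27 factors of ribosome assembly and ribosomal RNA modification, 25 were above 0, with a median of 0.33, and 4 were called higher. Among these is NMD3, the export adaptor of the 60S subunit. NMD3 had 724, 743 and 748 in xal1-2, against 509, 559 and 566 in WT (log2 fold change 0.44, adjusted p = 0.027, limma-trend). AT2G40360, a WD40-repeat homologue of BOP1, a factor of ribosomal RNA processing in yeast and mammals, had 1248, 1192 and 1089 in xal1-2, against 756, 701 and 847 in WT (log2 fold change 0.62, adjusted p = 0.011, limma-trend). No gene of these 3 lists was called lower.

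**Figure D5:**
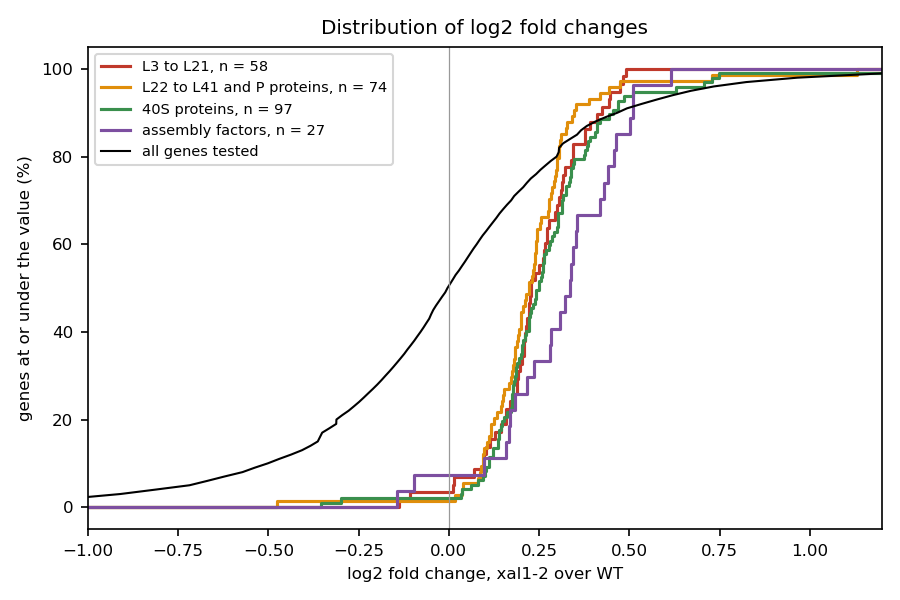
Cumulative share of genes in percent (y) at or under each log2 fold change, xal1-2 over WT (x). Curves are for the 58 tested members (L3 to L21), the other 60S proteins, the 40S proteins, the assembly factors and all genes tested. The curves of the ribosomal lists lie to the right of 0 and are steeper than the curve of all genes, whose median is near 0; the members have their median at 0.23 and the assembly factors theirs at 0.33.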

How the data were processed

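Poly(A) RNA of 3 xal1-2 and 3 WT root samples was sequenced with a stranded paired-end kit, per the labels. The tools, per the submitters' processing notes, included Trimmomatic 0.39, FastQC 0.11.9, Subread 2.0.1 and DESeq2, with TAIR10. The sources used here do not say how strand, or reads matching several genes, were treated when counting. The library columns that the authors deposited hold a signal, read counts divided by a size factor. Within 0.001 of a read, 100% of the values came out as whole reads. The authors' deposited table also holds p-values, a log2 fold change and a test score per gene.

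The plan set limma-trend for scaled counts, and edgeR's quasi-likelihood test in case of raw counts. For these scaled values limma 3.58.1 in R 4.3.3 (limma-trend) was fitted to log2(scaled count + 1) of the 24441 genes above 0 in at least 1 library, with genotype as the only term. Alternatives were edgeR 4.0.16, DESeq2 1.42.0 and limma-voom on recovered reads, other scalings, pseudocounts and filters, a replicate block, a GC and length correction and left-out libraries. The scripts were tested on simulated data. Replicates of a genotype differed by more than counting noise. The labels call the replicates biological. The members and all lists were chosen with earlier results of these data known. Named in full are the called members, the largest changes, the 3 highest per kb, the most different pairs and the families of called members. Sequences and coordinates are RefSeq's TAIR10.1, not converted.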

Additional observations from a re-analysis of the deposited data

How the results depend on the processing

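Of the members given with every library's value, RPL4A and RPL18aA changed direction and no other did under the alternatives run. With 1 library left out, the log2 fold change of RPL4A ran from -0.106 (without xal1-2 replicate 1) to 0.169 (without xal1-2 replicate 3), below 0 in 4 of the 6 cases, and that of RPL18aA from -0.233 (without WT replicate 3) to 0.0097 (without xal1-2 replicate 1). In each alternative 0 members were called lower. The median log2 fold change of the members stayed between 0.23 and 0.29 over all settings that keep the 6 libraries, and between 0.185 and 0.288 with 1 library left out. The number called higher moved more. It was 9 with library totals (2.33% of all genes called higher), 7 with upper-quartile factors (1.83%), 8 after the GC and length correction (2.03%), 7 in DESeq2 (1.97%) and 1 with every gene of the table fitted (0.256%). Library totals shift the median of all genes by 0.057 (log2). Leaving out 1 library gave 0 to 5 members, 0 to 0 other 60S genes, 0 to 6 of the 40S genes, 0 to 6 assembly factors, 81 to 871 genes in all and 9 to 12 non-overlapping pairs. A pseudocount of 0.1 gave 1 other 60S gene and 5 of the 40S genes. With every gene fitted, 40S genes and assembly factors were called 0 times and 154 genes were called in all. The cause of these differences was not tested.

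The replicate numbers are shared by the genotypes. Deviations of same-numbered libraries had correlations of 0.01, 0.28 and 0.01, and those of differently numbered libraries ran from -0.25 to 0.18. Whether same-numbered libraries share a batch was not tested. With the replicate block in limma-trend 1 member, 0 other 60S genes and 4 of the 40S genes were called (309 genes, or 1.26%, higher in all), and with the block in edgeR 5 members and 1 other 60S gene (511 genes, or 2.70%). Read depth limits RPL8B and RPL18aA.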
